A study of Mus musculus with 4 samples.

Results

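The MYC, MAX and MXD network comprises transcription factors of the basic helix-loop-helix leucine zipper class, and its RNA levels were compared between Fbw7-deficient and wild-type mouse marrow progenitors. The 10 genes are Myc, Mycn, Mycl, Max, Mxd1, Mxd3, Mxd4, Mxi1, Mnt and Mlx. The genes were listed with earlier results of these data known. Their probe sets were taken by gene name and not by any measured value. Every probe set was used whose platform annotation names a member and no other gene. Of the 45101 probe sets on the arrays, 34958 name exactly 1 gene, and 24 of these name a member. Mxd4 has 4 probe sets, Mycn, Mycl, Mxd1 and Mxd3 have 3 each, Mxi1, Mnt and Mlx have 2 each, and Myc and Max have 1 each. A level filter, an intensity of 157 or more on at least 1 array, was passed by 19 of the 24 probe sets, which cover 9 of the 10 genes; Mycl passed on none.

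The study's groups were measured with 1 array each: Fbw7-deficient LSK cells, wild-type LSK cells, Fbw7-deficient MP cells and wild-type MP cells. LSK cells are the Kit+ Sca1+ cells of lineage-negative marrow, among them the hematopoietic stem cells. MP cells are myeloid progenitors of the same gate without Sca1, and were meant as the comparison by which LSK-enriched genes are found. All animals, the wild-type ones included, had received 3 intraperitoneal injections of polyI:C, a mimic of double-stranded RNA that induces interferon, at 20 ug per g, and were sampled 2 weeks after treatment. Each genotype was a single pool of 3 mice, from which both populations were sorted, so both arrays of a genotype share their animals. The deleted part of the gene, the Cre driver, and the mice's strain, sex and age are not stated in these sources. With 1 array per group there is no error between replicates: no test was made, no p-value is given, and every difference below lies between single arrays. The threshold for a call is 2-fold, and counts at 1.5-fold are given beside it because the members' differences were small. On bulk arrays, fewer cells of a type and less RNA per cell cannot be told apart.

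MYC, MYCN and MYCL bind DNA only as dimers with MAX, at the E-box sequence CACGTG, where they raise transcription of genes for ribosome assembly, nucleotide synthesis and cell cycle entry. The MXD proteins and MNT compete for MAX and for the same E-boxes and recruit SIN3 and histone deacetylases, so they lower transcription of the same genes. MLX is a second partner protein, which pairs with MXD1, MXD4 and MNT and with the nutrient sensors MondoA (gene Mlxip) and ChREBP (gene Mlxipl). In blood, Myc and Mycn act in the self-renewal and differentiation of stem cells, and MXD proteins are known for their rise as cells leave the cycle and mature. Fbw7, encoded by Fbxw7, is the substrate-binding subunit of a ubiquitin ligase that marks phosphorylated MYC and MYCN protein for degradation; the arrays measure RNA and do not see that step.

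RNA quality and cell type markers moved with the groups. The Gapdh control probe sets gave a 3'/5' ratio of 2.75 on the Fbw7-deficient LSK array and 4.30 on the wild-type LSK array, against 2.95 on the Fbw7-deficient MP array and 2.60 on the wild-type MP array. The summed intensity of 11 stem cell markers, 10 of which passed the filter, was 10173 in Fbw7-deficient LSK and 24642 in wild-type LSK, and 4485 in Fbw7-deficient MP and 6029 in wild-type MP. That of 15 neutrophil and monocyte markers was 230916 in Fbw7-deficient LSK and 115145 in wild-type LSK, and 242382 in Fbw7-deficient MP and 236400 in wild-type MP. Between the wild-type arrays, all 10 stem cell markers that passed were higher in LSK than in MP, and all 15 neutrophil and monocyte markers were lower. Ly6a, which encodes Sca1, has no probe set in the annotation used here and was not analysed. No intensity on these arrays is 0, so no marker can be called absent. Fbxw7 itself read 1103 in Fbw7-deficient LSK and 1355 in wild-type LSK, and 958 in Fbw7-deficient MP and 691 in wild-type MP; whether its probe sets lie in the deleted part is not known, so they do not check the labels.

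Promoters, from 250 bases before to 50 bases after a gene start, were read from RefSeq sequence of build GRCm38.p6 for 9 of the 10 genes, in 11 windows. They were searched on both strands for the E-box CACGTG, which is the network's own binding sequence, for the FOXO-type motif GTAAACA and for the E2F-type motif TTTNNCGC. An E-box stood in 4 of the 11 windows, those of Max, Mxd4, Mnt and Mlx, against 7.15% of all 32851 promoter windows. The E2F-type motif matched at 3 overlapping or nearby places in the Mycn window alone (5.17% of all windows hold it), and the FOXO-type motif matched in 1 of the 3 Mxi1 windows (3.65% of all windows). A match describes letters only and was not tested for binding. The windows printed are those that hold a match and whose gene had a probe set past 1.5-fold in a comparison of the arrays; Mxd1 passed 1.5-fold too, but its window holds none of the 3 motifs. They run 5′ to 3′ on the gene's strand, with E-boxes (Max, Mxd4, Mlx) or E2F-type matches (Mycn) in capitals. The Mxd4 window is chr5:34187661-34187960 on the minus strand, that of Max is chr12:76962199-76962498 on the minus strand, that of Mlx is chr11:101087040-101087339 on the plus strand, and that of Mycn is chr12:12941787-12942086 on the minus strand.
Mxd4: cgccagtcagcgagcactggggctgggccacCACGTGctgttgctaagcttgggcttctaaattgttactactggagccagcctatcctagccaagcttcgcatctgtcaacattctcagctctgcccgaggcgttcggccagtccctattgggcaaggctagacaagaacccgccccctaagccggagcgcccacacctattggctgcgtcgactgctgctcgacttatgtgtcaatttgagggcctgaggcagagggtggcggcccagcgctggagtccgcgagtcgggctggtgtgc
Max: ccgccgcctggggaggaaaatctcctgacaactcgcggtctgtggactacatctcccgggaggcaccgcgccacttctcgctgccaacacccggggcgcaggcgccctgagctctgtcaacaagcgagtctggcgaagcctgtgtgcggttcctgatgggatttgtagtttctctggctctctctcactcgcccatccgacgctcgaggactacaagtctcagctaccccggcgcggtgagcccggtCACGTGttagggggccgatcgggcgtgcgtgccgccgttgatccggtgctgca
Mlx: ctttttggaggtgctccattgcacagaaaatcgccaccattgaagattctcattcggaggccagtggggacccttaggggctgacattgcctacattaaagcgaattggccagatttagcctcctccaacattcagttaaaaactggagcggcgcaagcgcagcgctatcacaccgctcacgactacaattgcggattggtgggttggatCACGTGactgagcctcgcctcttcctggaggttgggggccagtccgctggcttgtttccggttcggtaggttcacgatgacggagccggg
Mycn: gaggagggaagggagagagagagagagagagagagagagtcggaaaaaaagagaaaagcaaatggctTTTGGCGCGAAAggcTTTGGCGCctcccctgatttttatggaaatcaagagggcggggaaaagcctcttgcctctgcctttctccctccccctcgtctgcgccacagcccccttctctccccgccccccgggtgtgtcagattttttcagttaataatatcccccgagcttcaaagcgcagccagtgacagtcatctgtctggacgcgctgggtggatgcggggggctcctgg
The Mxd4 E-box begins at position -219 from the gene start, that of Max at -3, so that it spans the start, and that of Mlx at -40. The 3 Mycn matches begin at -183, -179 and -168. The E-box of Mnt, whose window is not printed, begins at -123.

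**Figure D1:**
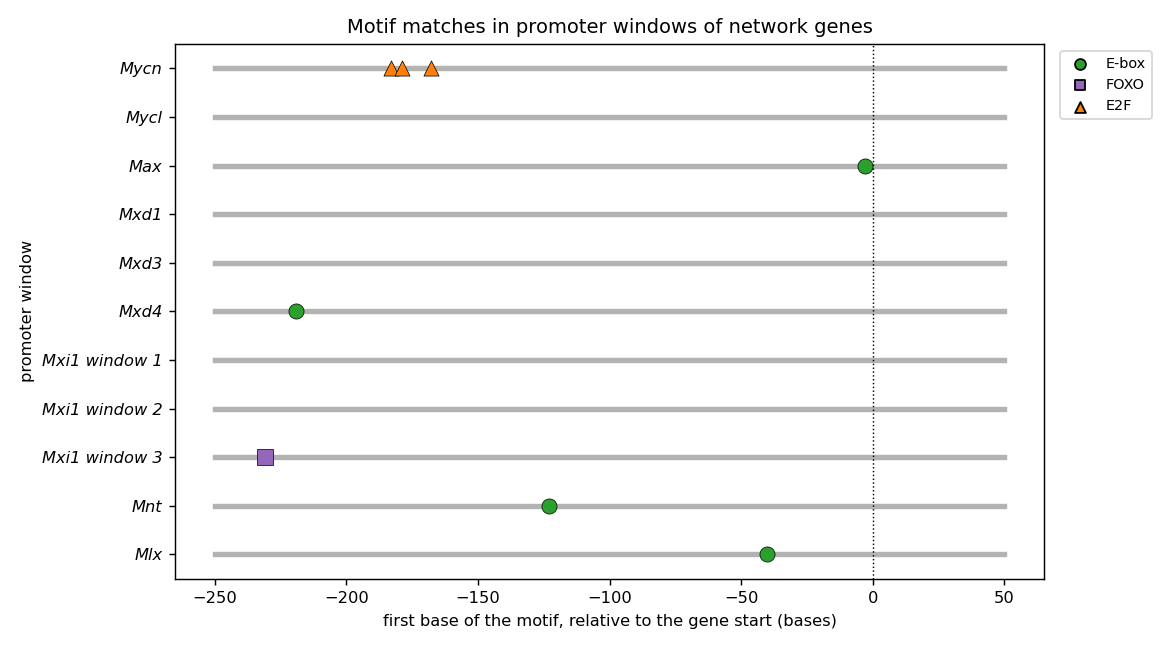
Motif matches in the 11 promoter windows of 9 network genes. Each grey bar is a window from 250 bases before to 50 after the gene start (dotted line); symbols mark the first base of each match on the x axis, in bases. E-boxes lie in the windows of Max, Mxd4, Mnt and Mlx, and the 3 E2F-type matches in that of Mycn.

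Among the MYC genes, Myc differed little with genotype, whereas Mycn was set apart by population. Myc, the general growth regulator of the family, read 6407 in Fbw7-deficient LSK and 5608 in wild-type LSK, and 4457 in Fbw7-deficient MP and 4073 in wild-type MP. Both Fbw7-deficient arrays were the higher of their pair, by log2 0.19 in LSK and 0.13 in MP, and both LSK arrays were above both MP arrays. These differences are near those of an ordinary probe set: the median absolute difference over all 20897 probe sets that name 1 gene and passed the filter was log2 0.20 between the LSK arrays and 0.17 between the MP arrays.

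Mycn, the family member known for its part in stem and progenitor cells, read 1976 in Fbw7-deficient LSK and 2551 in wild-type LSK, and 314 in Fbw7-deficient MP and 461 in wild-type MP on its brightest probe set. The LSK arrays were thus far above the MP arrays, by 6.30-fold in Fbw7-deficient and 5.53-fold in wild-type cells, and the Fbw7-deficient array was the lower of each genotype pair (log2 -0.37 in LSK and -0.56 in MP). Only 0.297% and 0.412% of the 20897 probe sets had a population difference as high in the Fbw7-deficient and the wild-type cells. The other Mycn probe set above the filter did not show this: it read 528 in Fbw7-deficient LSK and 522 in wild-type LSK, and 542 in Fbw7-deficient MP and 570 in wild-type MP. The third, under the filter, lay between 119 and 132 on the 4 arrays. The last 2 were designed from the same sequence record, the first from another, so the population difference of Mycn rests on 1 of 3 probe sets. As their mean it was log2 0.88 in Fbw7-deficient and 0.81 in wild-type cells, under 2-fold. The sums of early lymphoid and of stem cell markers were also higher on both LSK arrays than on both MP arrays. Single stem cell markers departed from this. Mllt3 read 498 in Fbw7-deficient LSK and 697 in Fbw7-deficient MP, and Gata2 read 1550 in Fbw7-deficient LSK and 2220 in wild-type MP. The 8 early lymphoid genes, 7 of them above the filter, summed to 30771 in Fbw7-deficient LSK and 30085 in wild-type LSK, and to 2806 in Fbw7-deficient MP and 5713 in wild-type MP. The stem cell sums given above had the same order of arrays as the brightest Mycn probe set, with wild-type LSK highest and Fbw7-deficient MP lowest. The part of either cell type in the Mycn difference was not tested.

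Mycl, the third MYC gene, stayed under the filter on all 3 of its probe sets, with values from 39.2 to 117 over the 4 arrays. Its largest difference was log2 -0.32, between LSK and MP of the Fbw7-deficient pool, and no order is read from values this dim.

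**Figure D2:**
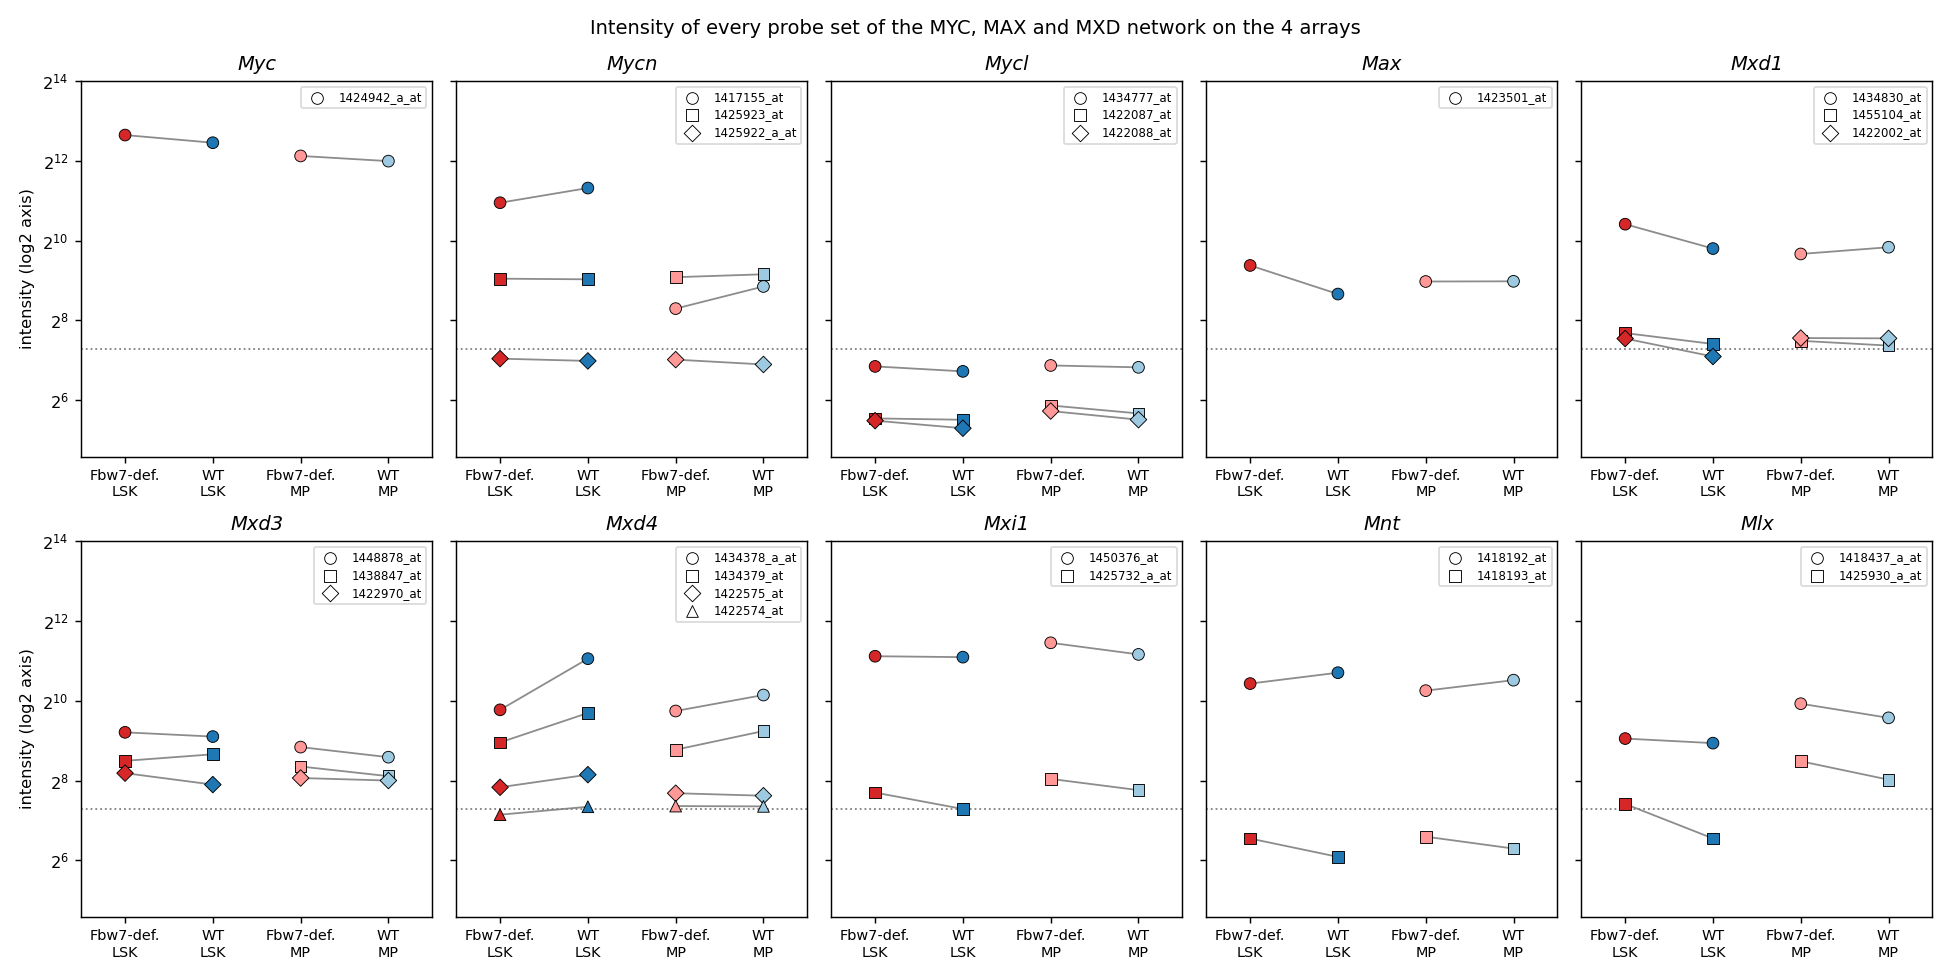
Intensity, on a log2 axis, of all 24 member probe sets on the 4 arrays. Each panel is a gene, each symbol shape a probe set, grey lines join the Fbw7-deficient and wild-type arrays of a population, and the dotted line is the level filter of 157. Mxd4 slopes upward toward wild-type LSK on its 4 probe sets, and the brightest Mycn probe set drops between LSK and MP.

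Max, the obligate partner of the MYC and MXD proteins, stood out in Fbw7-deficient LSK. Its 1 probe set read 664 in Fbw7-deficient LSK and 404 in wild-type LSK, and 503 in Fbw7-deficient MP and 504 in wild-type MP. Fbw7-deficient LSK was the highest array and wild-type LSK the lowest, with both MP arrays in between and all but equal. The genotype difference was log2 0.72 (1.64-fold) in LSK and -0.0045 in MP, and 3.02% of the 20897 probe sets had one as high in LSK. Wild-type LSK, on which Max was lowest, was the array with the largest Gapdh ratio; the part of RNA quality in the difference was not tested. Max had no second probe set among those that name 1 gene.

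Of the MXD genes, Mxd4 was lower and Mxd1 higher in Fbw7-deficient LSK, while Mxd3 and Mxi1 showed small differences. Mxd4, which encodes a MAX-binding repressor found in differentiating and resting cells, read 875 in Fbw7-deficient LSK and 2127 in wild-type LSK, and 857 in Fbw7-deficient MP and 1132 in wild-type MP on its brightest probe set. Wild-type LSK stood alone at the top, and Fbw7-deficient LSK lay at the level of Fbw7-deficient MP. The genotype difference was log2 -1.28 (2.43-fold lower) in LSK and -0.40 in MP, and 0.77% of the 20897 probe sets were at least as low in LSK. This was the largest genotype difference among the 24 probe sets and the one past 2-fold. As the mean of the 4 Mxd4 probe sets it was log2 -0.63, under 2-fold.

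The other 3 Mxd4 probe sets were also lower in Fbw7-deficient LSK, by smaller amounts. The second brightest read 496 in Fbw7-deficient LSK and 828 in wild-type LSK, and 437 in Fbw7-deficient MP and 605 in wild-type MP (log2 -0.74 and -0.47). The third read 228 in Fbw7-deficient LSK and 283 in wild-type LSK, and 205 in Fbw7-deficient MP and 197 in wild-type MP (log2 -0.32 and 0.06). The dimmest, at 141 in Fbw7-deficient LSK and 162 in wild-type LSK, and at 164 in Fbw7-deficient MP and 163 in wild-type MP, was close to the filter (log2 -0.20 and 0.01). In LSK the 4 probe sets thus share a direction, with sizes that shrink with their brightness; in MP only the 2 brighter ones were lower. The 2 brighter ones come from 1 sequence record and the 2 dimmer from another, so they are not 4 independent measurements. The stem cell markers were low on the same array: their sum was 10173 in Fbw7-deficient LSK against 24642 in wild-type LSK. The sum of 8 megakaryocyte and platelet markers was likewise highest in wild-type LSK. It was 5694 in Fbw7-deficient LSK and 16589 in wild-type LSK, and 6066 in Fbw7-deficient MP and 11226 in wild-type MP. Not every gene had this order. Gp1bb, Gp5 and Ppbp read 238, 749 and 348 in wild-type MP, against 213, 641 and 133 in wild-type LSK. The part of either cell type in the Mxd4 difference was not tested.

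Mxd1, a repressor that is induced as granulocytes mature, read 1361 in Fbw7-deficient LSK and 891 in wild-type LSK, and 811 in Fbw7-deficient MP and 912 in wild-type MP on its brightest probe set. Fbw7-deficient LSK was the highest of the 4 arrays, and the other 3 lay close together. The genotype difference was log2 0.61 (1.53-fold) in LSK and -0.17 in MP. Its 2 dimmer probe sets were also higher in Fbw7-deficient than in wild-type LSK, by log2 0.27 and 0.45, with MP differences of log2 0.12 and 0.01. The second read 205 in Fbw7-deficient LSK and 170 in wild-type LSK, and 179 in Fbw7-deficient MP and 165 in wild-type MP. The third read 187 in Fbw7-deficient LSK and 136 in wild-type LSK, and 188 in Fbw7-deficient MP and 187 in wild-type MP, so that on it wild-type LSK stood apart as the lowest array. Neutrophil and monocyte markers were higher on the same array, with sums of 230916 in Fbw7-deficient LSK against 115145 in wild-type LSK. On the MP arrays those markers summed to 242382 in Fbw7-deficient and 236400 in wild-type cells. B and plasma cell markers, 10 genes, summed to 17911 in Fbw7-deficient LSK and 10714 in wild-type LSK. Their sums on the MP arrays were 5192 in Fbw7-deficient and 13437 in wild-type cells. The B and plasma cell sums had the same order of arrays as the brightest Mxd1 probe set, though not every gene of that list did. The neutrophil and monocyte sums did not have it, being highest in Fbw7-deficient MP. The part of either cell type in the Mxd1 difference was not tested.

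Mxd3, which is known for its expression in cycling progenitors around S phase, read 592 in Fbw7-deficient LSK and 550 in wild-type LSK, and 458 in Fbw7-deficient MP and 384 in wild-type MP on its brightest probe set. Both LSK arrays were above both MP arrays there, and the genotype differences were log2 0.11 in LSK and 0.25 in MP. The remaining Mxd3 probe sets gave log2 -0.16 and 0.29 in LSK, which differ in sign, and 0.24 and 0.06 in MP.

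Mxi1, the MXD member also called MXD2, read 2221 in Fbw7-deficient LSK and 2185 in wild-type LSK, and 2805 in Fbw7-deficient MP and 2292 in wild-type MP. Fbw7-deficient MP was the highest array, and the genotype differences were log2 0.02 in LSK and 0.29 in MP. The dimmer Mxi1 probe set had differences of log2 0.41 in LSK and 0.28 in MP, with the same highest array. On both probe sets Mxi1 was lower in LSK than in MP, by log2 -0.34 on each in Fbw7-deficient and by -0.07 and -0.47 in wild-type cells.

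Mnt, the broadly expressed repressor that shares the MXD proteins' binding to MAX and SIN3, was slightly lower in both Fbw7-deficient populations. It read 1380 in Fbw7-deficient LSK and 1668 in wild-type LSK, and 1220 in Fbw7-deficient MP and 1465 in wild-type MP. The differences of log2 -0.27 and -0.26 are nearly equal and small: 19.9% and 17.7% of the 20897 probe sets were as low in LSK and MP. The other Mnt probe set, with values from 67.9 to 96.5 under the filter and designed from the same sequence record, had the opposite sign (log2 0.46 and 0.30).

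Mlx was lower in LSK than in MP on both probe sets and in both genotypes. Its brighter probe set read 531 in Fbw7-deficient LSK and 490 in wild-type LSK, and 973 in Fbw7-deficient MP and 761 in wild-type MP. The dimmer read 170 in Fbw7-deficient LSK and 93.6 in wild-type LSK, and 358 in Fbw7-deficient MP and 260 in wild-type MP. On both, Fbw7-deficient MP was highest and wild-type LSK lowest, and each Fbw7-deficient array was above its wild-type partner. The genotype differences were log2 0.11 in LSK and 0.35 in MP on the brighter, and 0.86 and 0.46 on the dimmer. The wild-type LSK value of the dimmer one lies under the filter, so the size of its LSK difference is not established.

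**Figure D3:**
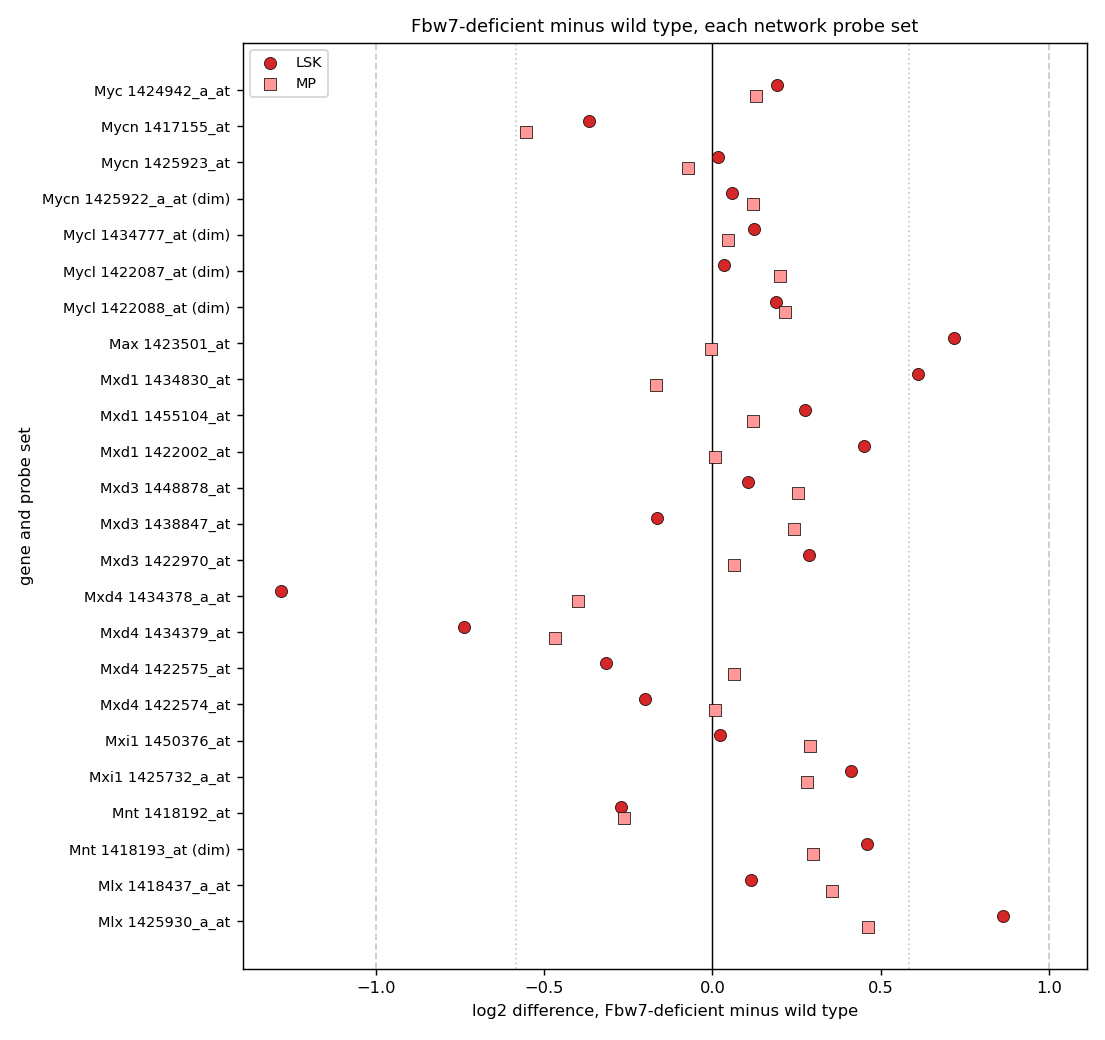
Genotype difference of each of the 24 member probe sets (x axis, log2 of Fbw7-deficient over wild type) in LSK (circles) and MP (squares). Dotted lines mark 1.5-fold and dashed lines 2-fold, and probe sets under the level filter are marked dim. The brightest Mxd4 probe set lies past 2-fold in LSK at log2 -1.28, and no probe set passes 1.5-fold in MP.

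Counted over the 24 probe sets, 3 were higher by 1.5-fold or more in Fbw7-deficient LSK than in wild-type LSK (Max, Mxd1 and the dimmer of Mlx) and 2 were lower by as much (the 2 brighter of Mxd4). Over the 20897 probe sets that passed the filter, 4.57% were that much higher and 6.97% that much lower. At 2-fold 1 was lower, against 1.87% of all, and none higher, against 1.51% of all. In MP none of the 24 passed 1.5-fold in either direction, where 2.94% of all were higher and 5.2% lower, and none passed 2-fold, where 0.723% were higher and 1.35% lower, so that the largest member differences there were log2 -0.56 for Mycn and 0.46 for Mlx. With so few probe sets, and several of them on 1 gene, these counts describe the members and carry no test.

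The difference of the genotype differences, LSK minus MP, passed 1.5-fold for 3 probe sets. Mxd1 (log2 0.78) and Max (log2 0.72) were relatively higher in LSK, and 6.12% of all probe sets passed in that direction. Mxd4 was relatively lower in LSK (log2 -0.88), where 5.67% passed. The other probe sets of Mxd1 (log2 0.15 and 0.44) and Mxd4 (log2 -0.27, -0.38 and -0.21) shared these signs but did not reach 1.5-fold. No error can be attached to these values, since an additive fit of genotype and population leaves this quantity as its single residual. Set against Myc, whose own differences were small, the change of Mxd4 was lower by log2 1.47 in LSK and 0.53 in MP, and that of Max was higher than that of Myc in LSK (Myc minus Max, log2 -0.52).

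The comparison of LSK with MP cells asks which members differ between the stem cell compartment and its progeny, and its 2 versions share no array with each other but each shares both of its arrays with the genotype comparisons. In Fbw7-deficient cells 2 of the 24 probe sets were at least 1.5-fold higher in LSK than in MP (Mycn and Mxd1), against 9.93% of all, and 2 lower (both of Mlx), against 4.72%. In wild-type cells 2 were higher (Mycn and Mxd4), against 13% of all, and 2 lower (both of Mlx), against 7.35%. At 2-fold Mycn was higher in both genotypes, where 3.85% of all were in Fbw7-deficient and 4.93% in wild-type cells, and the dimmer Mlx probe set lower in both, where 1.48% and 2.36% were. For Mlx the log2 differences between LSK and MP were -0.87 in Fbw7-deficient and -0.63 in wild-type cells on the brighter probe set, and -1.07 and -1.47 on the dimmer, whose wild-type LSK value lies under the filter, so that the size of the second is not established. For Mxd4 they were 0.03 in Fbw7-deficient and 0.91 in wild-type cells on its brightest probe set. Its other probe sets, by falling brightness, gave 0.18, 0.15 and -0.22 in Fbw7-deficient and 0.45, 0.53 and -0.01 in wild-type cells. For Mxd1 they were 0.75 in Fbw7-deficient and -0.03 in wild-type cells on its brightest probe set. Its dimmer ones gave 0.19 and -0.01 in Fbw7-deficient and 0.04 and -0.46 in wild-type cells. For Max they were 0.40 in Fbw7-deficient and -0.32 in wild-type cells. Myc was higher in LSK in both (log2 0.52 and 0.46).

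**Figure D4:**
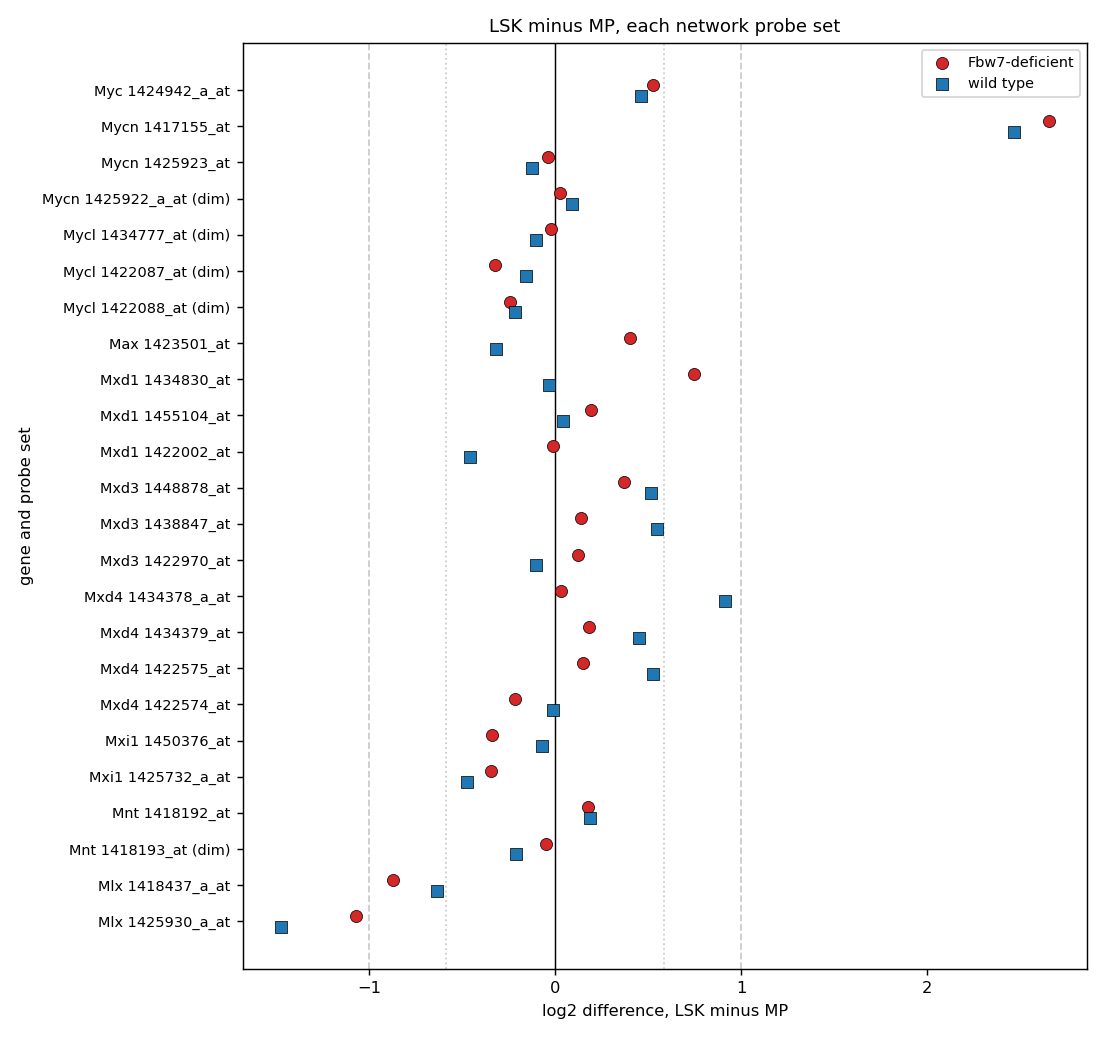
Difference between LSK and MP of each of the 24 member probe sets (x axis, log2 of LSK over MP) in Fbw7-deficient (circles) and wild-type cells (squares). Dotted lines mark 1.5-fold and dashed lines 2-fold. The brightest Mycn probe set lies at log2 2.65 and 2.47, and both Mlx probe sets lie below 0 in both genotypes.

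Of the members, Mycn and Mxd4 spanned at least log2 1 over the 4 arrays on their brightest probe set, and the genes with the most similar pattern were sought for both. Likeness was the Euclidean distance between log2 values centred on each gene's mean, over 4 arrays and 12239 other genes, and with 4 arrays many genes lie close. The nearest to Mycn were Gimap1, a GTPase gene of lymphocytes (distance 0.243), Lrrn4 (0.302) and Bex1 (0.327). Gimap1 read 1294 in Fbw7-deficient LSK and 1933 in wild-type LSK, and 191 in Fbw7-deficient MP and 289 in wild-type MP. The nearest to Mxd4 were Psd3 (distance 0.1), Rabgap1l (0.134) and Fyb (0.156), an adaptor gene of blood cells. Rabgap1l read 2281 in Fbw7-deficient LSK and 5239 in wild-type LSK, and 1982 in Fbw7-deficient MP and 2667 in wild-type MP.

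Genes around the network were taken from lists, with each gene represented by its brightest probe set. As their background, of the 12240 genes above the filter 1.79% passed 2-fold upward and 1.95% downward in Fbw7-deficient LSK, and 0.825% and 1.49% in Fbw7-deficient MP, with medians of log2 0.0049 in LSK and -0.0024 in MP. Of the same genes, 551 were at least 1.5-fold higher and 867 lower in Fbw7-deficient LSK, and 364 and 644 in Fbw7-deficient MP. Of the wider network, 5 of 6 genes passed the filter, with a median of log2 -0.07 in LSK and -0.21 in MP and none past 1.5-fold. Mlxip, which encodes the MLX partner MondoA, read 859 in Fbw7-deficient LSK and 1226 in wild-type LSK, and 607 in Fbw7-deficient MP and 710 in wild-type MP (log2 -0.51 and -0.23). Mga, which encodes a large MAX-binding repressor, differed by log2 -0.15 in LSK and 0.38 in MP. Mlxipl stayed under the filter, between 111 and 121.

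Of the target genes of MLX with its Mondo partners, Txnip and Arrdc4 had the largest differences in LSK, both lower in Fbw7-deficient cells, while Pklr was higher on most readings. The list of 7 genes had a median of log2 -0.80 in LSK, with 3 at least 2-fold lower and none 2-fold higher, and -0.60 in MP, with 1 at least 2-fold lower and none higher. Txnip, which encodes an inhibitor of glucose uptake and thioredoxin and is the best known MondoA target, read 1550 in Fbw7-deficient LSK and 4794 in wild-type LSK, and 1391 in Fbw7-deficient MP and 3004 in wild-type MP (log2 -1.63 and -1.11). Arrdc4, its arrestin-domain relative, read 234 in Fbw7-deficient LSK and 672 in wild-type LSK, and 218 in Fbw7-deficient MP and 318 in wild-type MP (log2 -1.52 and -0.55). The other probe set above the filter was lower too for both, by log2 -0.39 in LSK and -0.46 in MP for Txnip and by -0.47 and -0.31 for Arrdc4. Klf10 (log2 -1.14 and -0.69) and Arrdc3 (log2 -0.80 and -0.60) followed, and the hexokinase gene Hk2 had log2 -0.20 in LSK and -0.76 in MP. The remaining 2 genes of the list are named after their values were seen. Pklr, which encodes a pyruvate kinase, had log2 0.27 in LSK and -0.10 in MP on its brightest probe set, 0.39 and 0.54 on another, and 0.47 and 1.05 on the remaining one, which is past 2-fold higher in MP. Tkt, of the pentose phosphate pathway, had log2 0.11 in LSK and -0.0037 in MP, with LSK values of -0.08 and 0.49 on its other probe sets. Mlx itself had log2 0.11 in LSK and 0.35 in MP on its brighter probe set, and its partner gene Mlxip had -0.51 and -0.23. The part of either in the differences of this list was not tested. Txnip had been described in these data before the list was drawn up.

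Genes that MYC induces were slightly higher in Fbw7-deficient cells, and Myc RNA differed by log2 0.19 in LSK and 0.13 in MP. The list was drawn up with earlier results of these data known, so its counts describe it and carry no test. Of 47 measured genes, 45 were above 0 in LSK with a median of log2 0.33, where 50.8% of all genes were above 0, and 35 in MP with a median of 0.14, where 49.6% were. Past 2-fold in LSK were E2f2, a factor of S phase entry (log2 1.38), and the transferrin receptor gene Tfrc (log2 1.19). None passed 2-fold in MP. Rrp12 and Nolc1, of ribosome assembly, had log2 0.79 and 0.63 in LSK. The classical targets Odc1, of polyamine synthesis, and Ncl, which encodes nucleolin, had log2 0.39 and 0.27 in LSK, and 0.05 and 0.08 in MP. The other Odc1 probe sets gave log2 0.53 and 0.20 in LSK, and 0.42 and 0.10 in MP. Those of Ncl ran from log2 -0.06 to 0.77 in LSK and from -0.41 to 0.11 in MP. Cdk4 (log2 -0.16) and Tert (log2 -0.20) were the 2 genes below 0 in LSK; Tert is named here after its value was seen. Erythroid markers, of which Tfrc is one, were higher too: 13 genes, 12 of them above the filter, summed to 50381 in Fbw7-deficient LSK and 23767 in wild-type LSK, and to 101234 in Fbw7-deficient MP and 67900 in wild-type MP. The list also differed by population: between the wild-type arrays 40 of the 47 genes were lower in LSK than in MP and 7 higher. The median there was log2 -0.27, and 48.0% of all genes were above 0. Neutrophil and monocyte markers summed to 230916 in Fbw7-deficient LSK and 115145 in wild-type LSK. On the MP arrays they summed to 242382 in Fbw7-deficient and 236400 in wild-type cells. The part of any of these cell types was not tested.

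Genes that MYC represses were more often lower than higher in Fbw7-deficient cells, with genes on both sides of 0. This list too was drawn up with earlier results of these data known, so its counts carry no test. Of 22 that passed the filter, 16 were below 0 in LSK and 16 in MP, with medians of log2 -0.30 and -0.27. Above 0 were 6 in each, where 50.8% of all genes were in LSK and 49.6% in MP. At least 2-fold lower were 2 in LSK, against 1.95% of all, and 5 in MP, against 1.49%. Klf6 (log2 -1.81 in LSK and -1.52 in MP) and Klf2 (log2 -1.14 and -1.27), zinc finger factors of resting cells, were past 2-fold lower in both. The hypoxia gene Ndrg1 had log2 -0.86 and -0.75, and the antiproliferative gene Btg2 -0.82 and -1.01. Cebpa, a factor of granulocyte commitment named here after its value was seen, had log2 0.41 in LSK and -1.003 in MP. The integrin gene Itgal had log2 -0.54 in LSK and -1.37 in MP, while its other probe set had 0.12 and -0.21. Cebpd, a factor of granulocyte maturation, was 2-fold higher in LSK (log2 1.31) and not in MP (log2 -0.22), and its other probe set gave log2 0.24 in LSK. The kinase inhibitor genes Cdkn1b and Cdkn1c had log2 -0.51 and -0.67 in LSK, and 0.01 and -0.01 in MP. On the other Cdkn1b probe set the populations were alike, with log2 -0.26 in LSK and -0.25 in MP. Cdkn1c reached the filter on the wild-type LSK array alone, at 180, and read 113 in Fbw7-deficient LSK, 101 in Fbw7-deficient MP and 101 in wild-type MP, so the size of its differences is not established. Cdkn1a had log2 -0.13 and -0.37. Cdh2, a described target of MYC repression in stem cells, read 48.4 in Fbw7-deficient LSK and 42.3 in wild-type LSK, far under the filter.

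On their brightest probe sets, the partners and the turnover machinery of the network differed little. Of 10 corepressor genes, 8 were below 0 in LSK and 2 above, where 50.8% of all genes were above, with a median of log2 -0.10. None passed 1.5-fold in either population. Few of all genes did either, so on lists this short a count of none says little. Sin3a and Sin3b, the scaffolds that MXD proteins bind, had log2 -0.22 and -0.13 in LSK, and -0.07 and -0.29 in MP. Arid4a and Arid4b, subunits of the same complex, had log2 -0.43 and -0.35 in LSK, and 0.13 and 0.11 in MP. Of 14 coactivator genes none passed 1.5-fold; Ruvbl2, a chromatin ATPase that binds MYC, was the highest in both (log2 0.55 in LSK and 0.49 in MP), and Zbtb17, which encodes the MYC partner MIZ1, was at -0.07 and 0.03. Of 23 genes that act on MYC protein, none passed 2-fold on its brightest probe set. Other probe sets did for 2 of them, named after their values were seen. Fbxo32, a ubiquitin ligase gene, had log2 -0.19 in LSK and -0.09 in MP on the brightest, but -1.18 and -1.40 in LSK and -0.27 and -0.95 in MP on the others, which reached the filter on the wild-type LSK array alone. Set, which encodes an inhibitor of the phosphatase PP2A, had log2 -0.10 in MP on the brightest and -1.38 on another. Usp37, a deubiquitinase gene, had log2 -0.65 in LSK and -0.45 in MP, and the kinase genes Aurka and Pim1 had 0.51 and -0.47 in LSK. The ligase genes Skp2 and Huwe1 had log2 0.31 and 0.0044 in LSK, Usp28, whose product opposes Fbw7, had 0.13, and Gsk3b, which encodes the kinase that prepares MYC for Fbw7, had -0.38 in LSK and -0.33 in MP, with other Gsk3b probe sets on both sides of 0.

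**Figure D5:**
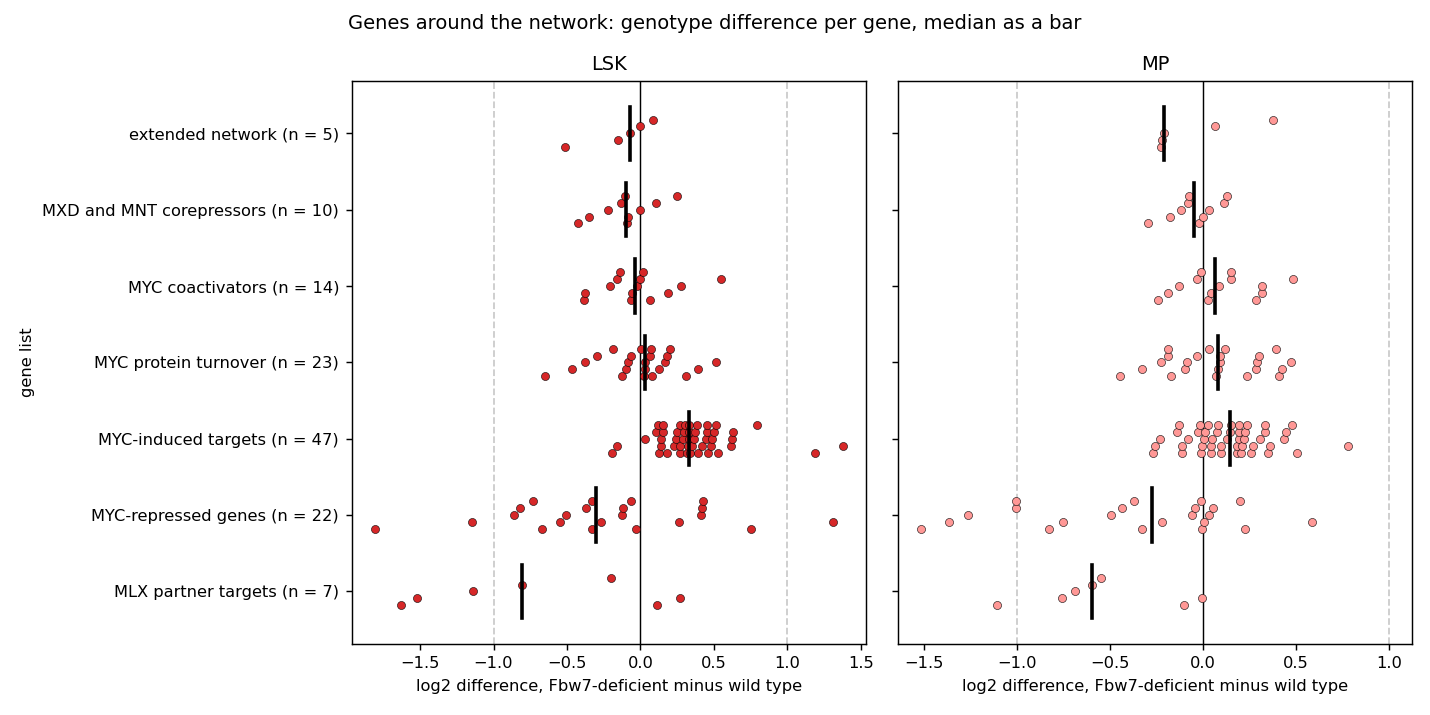
Genotype difference per gene (x axis, log2 of Fbw7-deficient over wild type) for the 7 lists of genes around the network, in LSK (left) and MP (right). Each point is a gene above the level filter, black bars are list medians and dashed lines mark 2-fold. Medians are 0.33 and 0.14 for genes MYC induces and -0.80 and -0.60 for targets of MLX and its Mondo partners.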

How the data were processed

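RNA of 4 sorted populations was amplified from 20 ng by a 2-cycle protocol, labelled with biotin and hybridised to Affymetrix arrays, per the labels' protocols; such amplification favours 3' ends. Each deposited value is a linear intensity for a probe set; the submitters' processing notes name RMA, with no version or settings. This method equalises the arrays' distributions (medians 155 to 159), so shifts shared by most genes are not seen, and differences of dim genes are compressed. No detection calls were used. The scale follows from the range, up to 43564.

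Values were taken to log2 here (Python 3.11.15, pandas 2.3.3, numpy 2.4.6), and single arrays were subtracted. Genes were named from the platform annotation, with symbols updated by gene ID for 34754 probe sets through a RefSeq table of GRCm38.p6; 932 probe sets naming several genes and 9211 unnamed ones were not used. Levels were not compared between probe sets. The calculation was checked on simulated data. The members and the 7 pathway and 10 marker lists were chosen with earlier results of these data known. The text names every member probe set, up to 4 genes per pathway list with the largest genotype difference, a fixed set of network genes, and a few genes said to be named after their values were seen. Alternatives were quantile normalisation, median centring, an added constant of 64, level filters of 0 and 300, leaving out probe sets of the s, x and a kinds, and gene means.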

Additional observations from a re-analysis of the deposited data

Results flagged for a closer look

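Within the network, 4 probe sets moved in opposite directions in the 2 populations or the 2 genotypes, by at least log2 0.1 each way; with 1 array per group none of these differences could be tested. The brightest Mxd1 probe set had a genotype difference of log2 0.61 in LSK and -0.17 in MP. A dimmer Mxd3 probe set had -0.16 in LSK and 0.24 in MP, while the brightest had the same sign in both. For Max the difference between LSK and MP was log2 0.40 in Fbw7-deficient and -0.32 in wild-type cells. The third Mxd3 probe set had 0.12 in Fbw7-deficient and -0.10 in wild-type cells.

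Of the 128 genes around the network above the level filter, 19 had genotype differences of opposite sign in the 2 populations by the same measure on their brightest probe set, again with no test. The 11 of these that are named in the text follow, and 8 others are not named. Fbxw7 had log2 -0.30 in LSK and 0.47 in MP on its brighter probe set, and 0.09 and 0.44 on the other. Cebpd had log2 1.31 in LSK and -0.22 in MP, with 0.24 and -0.06 on its other probe set. Cebpa had 0.41 and -1.003. Pklr had 0.27 and -0.10, while its other probe sets were above 0 in both populations. Mga had -0.15 and 0.38, against -0.03 and -0.06 on its other probe set. Ccnt1, of the elongation kinase, had -0.20 and 0.29, against 0.37 and -0.02 on its other probe set. Arid4a had -0.43 and 0.13, with -0.45 and -0.03 on its other probe set, and Suds3 had 0.25 and -0.12, with 0.25 and -0.10. With no other probe set above the filter, Trrap, the scaffold of MYC's acetyltransferase complexes, had -0.16 in LSK and 0.32 in MP, Arid4b had -0.35 and 0.11, and Paf1 had 0.28 and -0.13.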

How the results depend on the processing

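Under the 7 alternatives 487 of 497 recomputed results were scored as unchanged, and no called difference changed sign. Differences had to stay within 1.5-fold and on the same side of 2-fold, and counts within a factor of 1.5. The arrays were already equalised, so renormalising could move little, and small differences could hardly fail this rule. The count of member probe sets past 1.5-fold in LSK was 5 and became 3 with 64 added to each value, and 3 without probe sets of the s, x and a kinds. Without those kinds the count for LSK against MP was 1 in place of 4 in wild-type and 2 in place of 4 in Fbw7-deficient cells, since fewer probe sets remain. The genotype difference of Mxd4 in LSK was log2 -0.74 without those kinds and -0.63 as the mean of its probe sets, which ends the 2-fold call, and its difference of genotype differences was -0.27 without them. As the mean of all probe sets the difference of Mycn between LSK and MP was log2 0.88 in Fbw7-deficient and 0.81 in wild-type cells, which also ends the call, and that of Mlx in wild-type cells was -1.05, past 2-fold. No paired test was possible: LSK and MP of a genotype share their pool of animals, but there was 1 pool per genotype. An additive fit over the 4 arrays, with the pool as a block, would leave 1 residual degree of freedom and count the difference of the genotype differences as error; it was not run. The number of arrays limits the precision of every value.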
